A study of Homo sapiens with 6 samples.

Results

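Collagen genes were taken from the gene count table as the protein-coding genes whose symbol has the form COL, a number, A and a number. The rule found 44 of 58735 genes, and they were compared as 11 fibrillar, 6 basement membrane and 27 other collagens. The RNA came from HepaRG, a human liver cell line of bipotent progenitors that DMSO turns into a mix of hepatocyte-like and biliary-like cells. All 6 libraries came from cells differentiated in 1.8% DMSO, given siRNA for 48 h, and then loaded for 24 h with oleic acid at 800 µM together with palmitic acid at 400 µM. Their treatment labels were PTPF in 3 libraries and STATF in 3, abbreviations that are left unexplained. The study's siRNAs were aimed at PTPRD, a receptor-type tyrosine phosphatase, or at STAT3, a cytokine-activated transcription factor, or were controls. Control-siRNA libraries were not analysed here, so a fall in PTPF libraries cannot be told from a rise in STATF libraries.

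Collagens are secreted proteins of the extracellular matrix whose chains wind into triple helices. Fibrillar collagens assemble into the cross-striated fibrils that give tissue its tensile strength and that build up in the fibrotic liver, where activated stellate cells are a main source. The basement membrane class, as counted here, holds only type IV collagens, which form sheet-like networks under epithelia and around vessels. COL18A1, which is also found in basement membranes, was counted with the other collagens. Type IV chains combine as COL4A1 with COL4A2, as COL4A3 with COL4A4 and COL4A5, and as COL4A5 with COL4A6. The remaining collagens include those that decorate fibrils (the FACIT group), form beaded filaments, anchor the epidermis, or span the cell membrane.

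The siRNA targets were examined first. STAT3 averaged 443 ± 12.2 CPM (counts scaled to library size, with TMM factors) in PTPF libraries and 119.6 ± 10.6 CPM in STATF libraries (SD, n = 3 each), a log2 fold change of 1.89 (edgeR adjusted p = 2.47e-18). PTPRD averaged 11.5 ± 1.37 CPM in PTPF libraries and 11.5 ± 0.603 CPM in STATF libraries (SD, n = 3 each), a log2 fold change of 0.00 (95% interval -0.19 to 0.20, edgeR adjusted p = 0.999). PTPRD therefore did not separate the groups, and every direction here is between the libraries labelled PTPF and those labelled STATF. Total counts were 33225627 to 36785080 in PTPF libraries and 36443380 to 40796767 in STATF libraries, so that a gene without counts could still have had 3, which is 0.0720 to 0.0919 CPM. Of the markers of the labelled hepatocytes, all 8 were measured well enough to be tested, 2 higher and 3 lower in PTPF libraries, and their summed level was 40040 to 46380 CPM in PTPF libraries and 37060 to 37820 CPM in STATF libraries, without overlap. The higher sum in PTPF libraries came from SERPINA1, the antitrypsin gene. SERPINA1 averaged 23741 CPM in PTPF libraries and 14464 CPM in STATF libraries (log2 fold change 0.71, edgeR adjusted p = 2.42e-08). CYP3A4 had the list's largest fold change, at 137 CPM in PTPF libraries and 347 CPM in STATF libraries (log2 fold change -1.34, edgeR adjusted p = 5.85e-03). Albumin averaged 12006 CPM in PTPF libraries and 14867 CPM in STATF libraries (log2 fold change -0.31, edgeR adjusted p = 1.64e-03). Nothing says that the replicates were separate cultures. The p-values then reflect only how these libraries varied, and that variation may be technical.

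Of the 44 collagen genes, 27 were expressed highly enough to be tested. In edgeR's quasi-likelihood test, with Benjamini-Hochberg adjustment over all 17844 genes tested and a threshold of 0.05, 14 of the 27 passed (51.9%), against 21.6% of all genes. Of these 2 were higher in PTPF libraries, where 10.1% of all genes were, and 12 were lower, where 11.6% of all genes were. The median log2 fold change was -0.21 over the 27 collagens and 0.00 over all genes tested. All 6 basement membrane collagens were lower (median -0.41). Of 8 fibrillar collagens 1 was higher and none lower (median 0.08), and of 13 other collagens 1 was higher and 6 lower (median 0.04). Outside the basement membrane class, 8 of 21 passed (38.1%, median 0.05). PTPF and STATF libraries did not overlap for 15 of the 27 collagens, against 35.7% of all genes. The classes were not tested against each other. In a test against a change of 1.5-fold, no collagen passed, which does not show that every change was smaller than that. Most collagens past the main test had fitted changes under 1.5-fold. COL21A1 was fitted at 1.88-fold higher in PTPF libraries (edgeR adjusted p = 0.0931 in the test against 1.5-fold). COL28A1 was fitted at 0.561 of its level in STATF libraries.

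**Figure D1:**
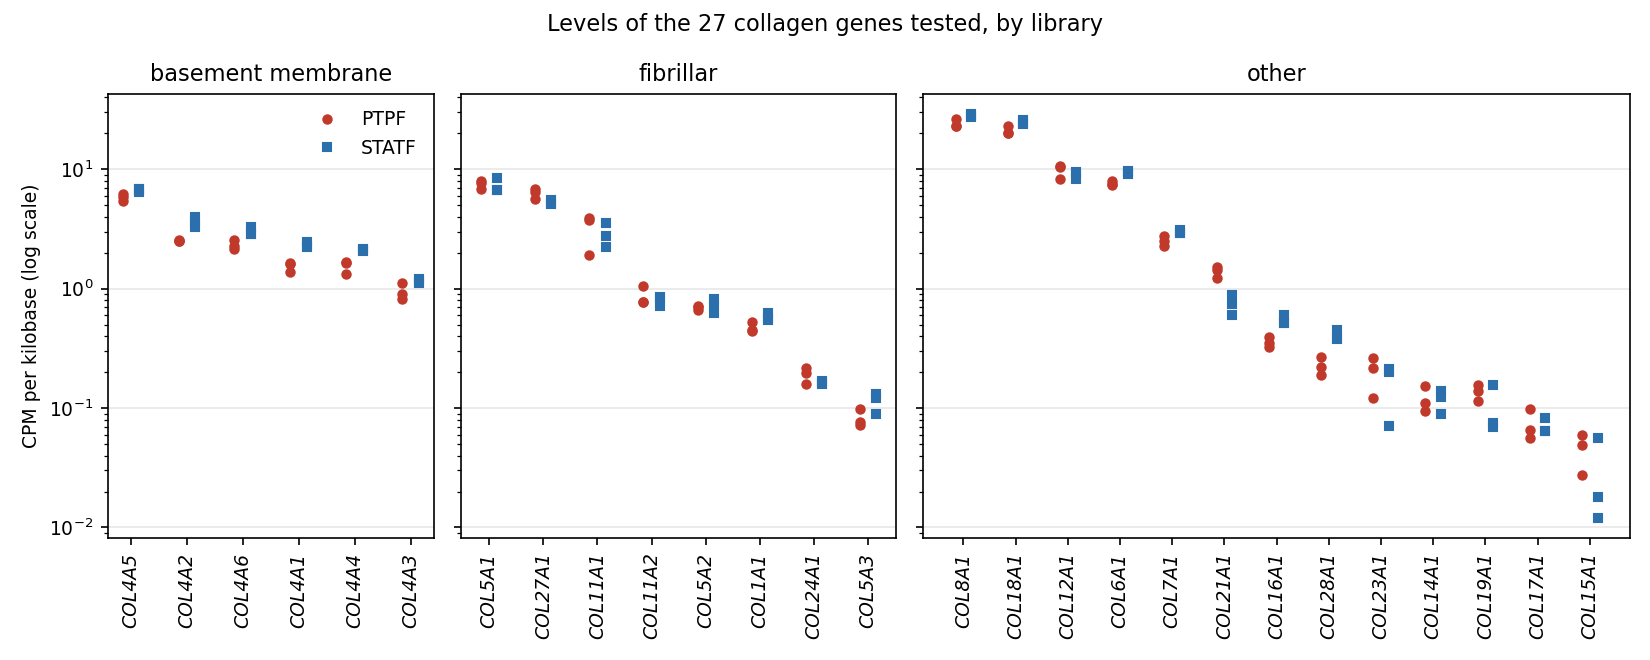
Level of each of the 27 tested collagen genes in each library, in CPM per kilobase of gene length on a log scale, by class, with PTPF libraries as circles and STATF libraries as squares to their right. COL8A1 and COL18A1 stand highest, and all 6 basement membrane genes show PTPF libraries below STATF libraries.

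**Figure D2:**
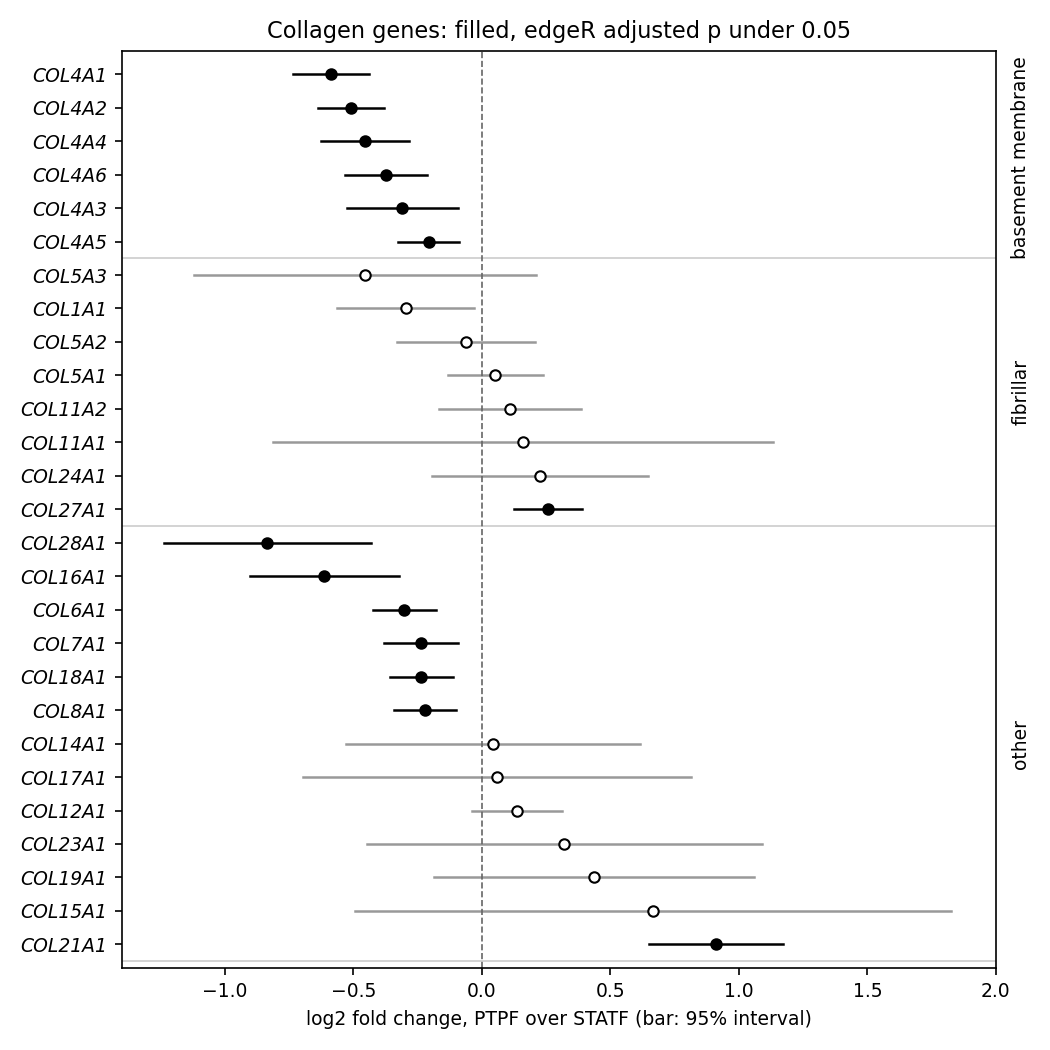
Log2 fold change of PTPF over STATF for each tested collagen, with its 95% interval, by class. Filled points passed an edgeR adjusted p of 0.05, and all 6 basement membrane collagens lie left of 0.

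The 6 type IV genes lie in head-to-head pairs that share a promoter region, an arrangement in which both genes are transcribed outward from a common stretch of DNA. By the RefSeq start sites on GRCh38.p14, the starts of COL4A1 (minus strand) and COL4A2 (plus strand) are 127 bases apart on chromosome 13, those of COL4A4 (minus) and COL4A3 (plus) 419 bases apart on chromosome 2, and those of COL4A6 (minus) and COL4A5 (plus) 380 bases apart on chromosome X. For COL4A6 the start closest to COL4A5 was taken, and another RefSeq start of COL4A6 lies at chrX:108438422. The windows of COL4A1 and COL4A2, and of COL4A6 and COL4A5, are shown as examples of the pairs, whose genes were all lower in PTPF libraries. That of COL7A1 is shown because, among collagens past the test that have a RefSeq window, it alone holds the palindromic spacing known to bind STAT dimers. Each sequence is the gene's own strand, 5′ to 3′, from 250 bases before the start through the first 50 bases transcribed. Capitals mark the CCAAT box (CCAAT), the GC box (GGGCGG) and the STAT spacing (TTCNNNGAA), searched on both strands with overlaps allowed.
COL4A1, chr13:110307108-110307407, minus strand: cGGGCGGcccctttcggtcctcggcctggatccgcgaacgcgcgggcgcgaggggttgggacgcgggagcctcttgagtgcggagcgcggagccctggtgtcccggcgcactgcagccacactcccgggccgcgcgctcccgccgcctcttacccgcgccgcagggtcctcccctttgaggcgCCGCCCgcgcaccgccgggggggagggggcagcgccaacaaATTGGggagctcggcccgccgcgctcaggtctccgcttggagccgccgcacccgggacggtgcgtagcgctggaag
COL4A2, chr13:110307034-110307333, plus strand: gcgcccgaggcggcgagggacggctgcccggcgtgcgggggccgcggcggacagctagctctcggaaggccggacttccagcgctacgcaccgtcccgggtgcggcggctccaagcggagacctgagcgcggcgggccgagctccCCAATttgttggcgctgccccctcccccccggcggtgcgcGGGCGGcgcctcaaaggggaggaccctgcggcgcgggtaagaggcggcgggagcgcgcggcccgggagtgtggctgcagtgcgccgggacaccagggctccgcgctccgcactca
COL4A6, chrX:108439409-108439708, minus strand: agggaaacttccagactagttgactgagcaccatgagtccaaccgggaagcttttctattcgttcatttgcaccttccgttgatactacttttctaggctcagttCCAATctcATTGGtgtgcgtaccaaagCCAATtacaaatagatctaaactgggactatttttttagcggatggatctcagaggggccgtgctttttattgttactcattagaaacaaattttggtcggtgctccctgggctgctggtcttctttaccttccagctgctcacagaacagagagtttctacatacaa
COL4A5, chrX:108439588-108439887, plus strand: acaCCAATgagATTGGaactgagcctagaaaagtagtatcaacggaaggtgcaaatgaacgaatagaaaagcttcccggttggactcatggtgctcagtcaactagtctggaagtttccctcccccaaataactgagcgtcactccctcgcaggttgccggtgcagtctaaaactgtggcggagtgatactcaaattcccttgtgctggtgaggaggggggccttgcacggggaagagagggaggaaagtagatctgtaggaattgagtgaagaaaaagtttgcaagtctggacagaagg
COL7A1, chr3:48595280-48595579, minus strand: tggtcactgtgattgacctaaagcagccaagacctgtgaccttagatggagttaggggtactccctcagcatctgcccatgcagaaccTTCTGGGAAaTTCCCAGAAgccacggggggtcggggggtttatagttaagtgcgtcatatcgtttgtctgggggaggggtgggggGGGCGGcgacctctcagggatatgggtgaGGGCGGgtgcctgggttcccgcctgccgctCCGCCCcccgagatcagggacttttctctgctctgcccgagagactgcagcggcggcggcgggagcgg

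The COL4A1 and COL4A2 windows overlap on opposite strands, and both hold the same CCAAT box at chr13:110307179-110307183 and the same GC box at chr13:110307219-110307224. The COL4A6 and COL4A5 windows shown likewise share a pair of CCAAT boxes, at chrX:108439591-108439595 and chrX:108439599-108439603. The window of the other COL4A6 start held no CCAAT box. The pair COL4A3 and COL4A4, not shown, had no CCAAT box in either window, and GC boxes only in that of COL4A3. RefSeq windows were available for 32 of the 44 members, 44 windows in all. A CCAAT box was found in 14 of them (31.8%) and in 34.6% of all 35116 promoter windows. A GC box was found in 24 (54.5%) and in 45.0% of all windows. The STAT spacing was found in 2 (4.5%), against 7.7% of all windows. These were the window of COL7A1, with matches beginning 162 and 152 bases before the start, and 1 of the windows of COL11A2, a fibrillar collagen that did not pass the test. A match describes letters in the window and is not a measured binding site.

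COL4A1 and COL4A2, the chains found in nearly all basement membranes, showed the largest reductions of their class. In the deposited table's GRCh38 positions they lie on chromosome 13, COL4A1 from 110148963 to 110307233 on the minus strand and COL4A2 from 110305812 to 110513209 on the plus strand. COL4A1 stood at 23.9, 24.1 and 20.4 CPM in PTPF libraries, against 35.9, 32.9 and 33.9 CPM in STATF libraries. Every PTPF library was below every STATF library, and the log2 fold change was -0.59 (95% interval -0.73 to -0.44, edgeR adjusted p = 5.04e-07), a reduction of 33.4%. COL4A2 stood at 48.7, 49.6 and 48.3 CPM in PTPF libraries, against 76.3, 68.6 and 63.8 CPM in STATF libraries. The 3 PTPF libraries lay close together and all below the STATF range, with a log2 fold change of -0.51 (95% interval -0.64 to -0.38, edgeR adjusted p = 5.63e-07). Per kilobase, the ratio of COL4A1 to COL4A2 was 0.641, 0.636 and 0.553 in PTPF libraries and 0.616, 0.628 and 0.695 in STATF libraries, so that the groups overlapped in the balance of these partner chains.

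COL4A5 was the most expressed type IV gene per kilobase, with 37.3% of the class's summed level, and had the smallest difference of the class. It stood at 64.4, 73.4 and 69.6 CPM in PTPF libraries, against 76.9, 81.4 and 81.2 CPM in STATF libraries. The groups did not overlap, and the log2 fold change was -0.21 (95% interval -0.33 to -0.09, edgeR adjusted p = 0.0103). Its call was lost without STATF replicate 2 (edgeR adjusted p = 0.0637) or STATF replicate 3 (edgeR adjusted p = 0.0566). COL4A6, its neighbour on chromosome X and the chain of certain epithelial and muscle basement membranes, stood at 21.0, 24.0 and 19.8 CPM in PTPF libraries, against 26.8, 30.6 and 26.6 CPM in STATF libraries. Each PTPF library was below each STATF library, with a log2 fold change of -0.37 (95% interval -0.53 to -0.21, edgeR adjusted p = 6.88e-04). The ratio of COL4A5 to COL4A6 per kilobase was 2.40, 2.40 and 2.75 in PTPF libraries and 2.24, 2.08 and 2.39 in STATF libraries, which nearly touched. The ratio of COL4A1 to COL4A5 per kilobase was 0.298, 0.265 and 0.236 in PTPF libraries and 0.376, 0.326 and 0.336 in STATF libraries, lower in every PTPF library.

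COL4A4 and COL4A3, known from the glomerular basement membrane of the kidney and from Alport syndrome, were also measured in these liver cells. COL4A4 stood at 13.3, 16.7 and 16.7 CPM in PTPF libraries, against 21.3, 21.8 and 20.8 CPM in STATF libraries. All PTPF libraries were lower, with a log2 fold change of -0.46 (95% interval -0.63 to -0.28, edgeR adjusted p = 1.57e-04). COL4A3 stood at 8.25, 7.52 and 10.17 CPM in PTPF libraries, against 10.21, 10.998 and 10.9 CPM in STATF libraries. The third PTPF library came close to the first STATF library without reaching it, and the log2 fold change was -0.31 (95% interval -0.53 to -0.09, edgeR adjusted p = 0.0340). COL4A3 was the least firm call of the class. It was lost in DESeq2 (adjusted p = 0.0838) and in edgeR without PTPF replicate 1 (adjusted p = 0.0851), PTPF replicate 2 (0.196), STATF replicate 1 (0.0558), STATF replicate 2 (0.109) or STATF replicate 3 (0.106). For each of the 6 type IV genes the two-sided exact permutation p over libraries was 0.1, the smallest that 3 against 3 libraries allow.

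**Figure D3:**
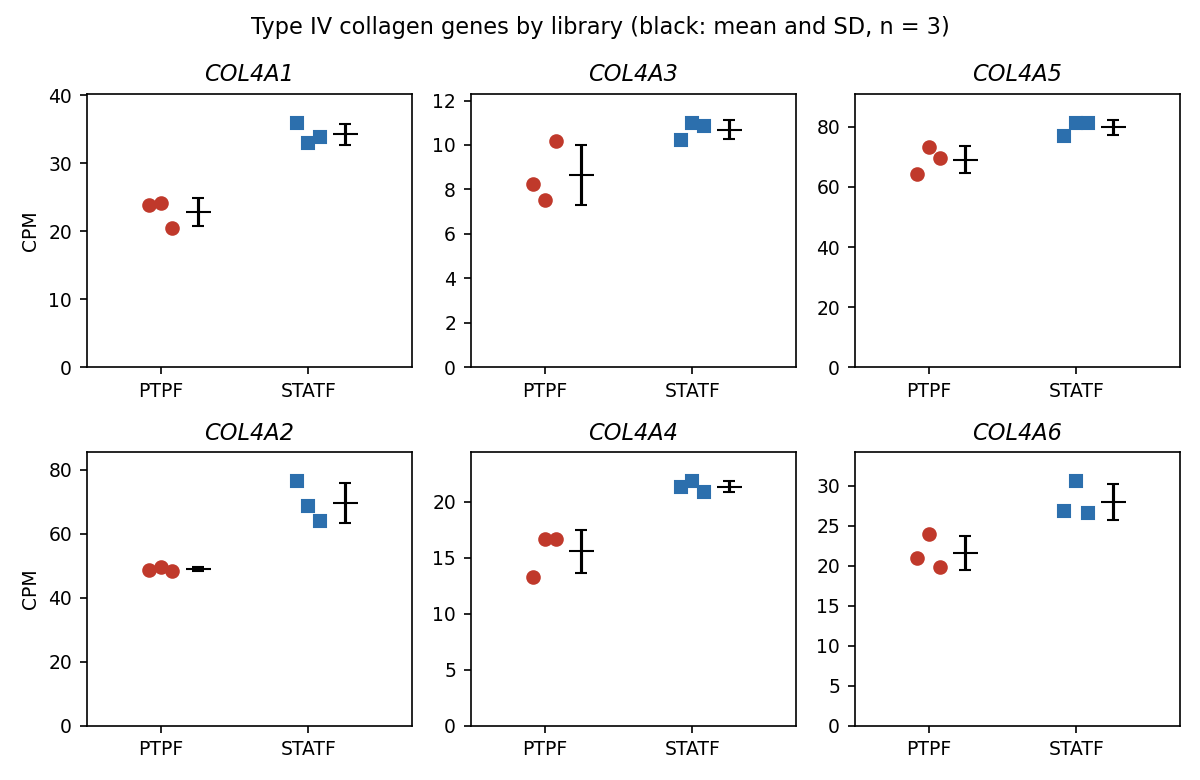
CPM of each type IV collagen gene by library, on axes that start at 0, with PTPF libraries as circles and STATF libraries as squares to their right, and the mean and SD of each group in black (n = 3). The partners of each head-to-head pair stand above each other, and in every panel all PTPF libraries lie below all STATF libraries, most narrowly for COL4A3.

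Markers of other cell types that make basement membranes were set beside the type IV result. The summed level of 7 endothelial markers was 33.6 to 39.8 CPM in PTPF libraries and 57.9 to 61.5 CPM in STATF libraries, without overlap. Most of it was KDR, the main receptor for vascular endothelial growth factor, at 35.8 ± 3.36 CPM in PTPF libraries and 57.6 ± 2.23 CPM in STATF libraries (SD, n = 3 each; log2 fold change -0.69, edgeR adjusted p = 7.03e-09). Of the other endothelial markers, CDH5 and CLEC4G were at or under 1 count in every library. VWF and LYVE1 had at most 8 and 6 counts in any library and were not tested. PECAM1, on 13 to 50 counts per library, did not pass the test (log2 fold change -0.63, edgeR adjusted p = 0.163). Nor did STAB2, on 13 to 24 counts (-0.09, edgeR adjusted p = 0.903). The 7 cholangiocyte and progenitor markers summed to 299 to 333.8 CPM in PTPF libraries and 286.7 to 304.3 CPM in STATF libraries, overlapping, with EPCAM at 0 counts and CFTR at or under 3 counts. Within that list 2 of 5 tested markers were lower and 1 was higher. The higher one was CD24, a surface glycoprotein and the list's most abundant gene, at 185.1 ± 12.8 CPM in PTPF libraries and 120.5 ± 2.41 CPM in STATF libraries (SD, n = 3 each; log2 fold change 0.62, edgeR adjusted p = 3.91e-09). KRT19, a biliary keratin, averaged 75.7 ± 6.40 CPM in PTPF libraries and 112.7 ± 10.3 CPM in STATF libraries (SD, n = 3 each; log2 fold change -0.57, edgeR adjusted p = 6.07e-07). SOX9, a transcription factor of biliary cells, averaged 15.1 ± 0.610 CPM in PTPF libraries and 20.03 ± 1.22 CPM in STATF libraries (SD, n = 3 each; log2 fold change -0.40, edgeR adjusted p = 2.51e-04). The part of these markers in the type IV result was not tested. In bulk RNA, fewer cells of a type and less RNA per cell cannot be told apart.

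The fibrillar class was led by COL5A1, COL27A1 and COL11A1, and not by the type I and type III genes of the fibrotic scar. COL5A1, the chain that starts type I fibrils and sets their width, held 39.7% of the class's summed level per kilobase. It stood at 76.4, 90.04 and 85.8 CPM in PTPF libraries, against 93.9, 74.6 and 74.9 CPM in STATF libraries. The groups overlapped, and the log2 fold change was 0.05 (95% interval -0.13 to 0.24, edgeR adjusted p = 0.732). COL27A1, a fibrillar collagen best known from cartilage, held 31.2% and was the only fibrillar gene to pass the test. It lies on chromosome 9 from 114155560 to 114312511 (GRCh38, plus strand). It stood at 78.7, 95.5 and 90.9 CPM in PTPF libraries, against 71.9, 72.3 and 77.5 CPM in STATF libraries. All PTPF libraries were higher, though the lowest came close to the highest STATF library, and the log2 fold change was 0.26 (95% interval 0.13 to 0.39, edgeR adjusted p = 3.86e-03). The COL27A1 call was lost when libraries were scaled by their totals alone (log2 fold change 0.20, edgeR adjusted p = 0.0508).

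COL11A1, a cartilage collagen that nucleates type II fibrils, varied more within the groups than between them. It stood at 17.5, 34.0 and 35.4 CPM in PTPF libraries, against 20.2, 32.3 and 25.2 CPM in STATF libraries, with a log2 fold change of 0.16 (95% interval -0.81 to 1.13, edgeR adjusted p = 0.823). PTPF replicate 1 was the lowest PTPF library for COL11A1, COL5A1 and COL27A1. The type V and type XI partners COL5A2 and COL11A2, at log2 fold changes of -0.06 and 0.11, did not pass the test (edgeR adjusted p = 0.8 and 0.634). Nor did the lower expressed COL24A1 (0.23, edgeR adjusted p = 0.491) and COL5A3 (-0.46, edgeR adjusted p = 0.356, on 17 to 33 counts per library). Per kilobase, the ratio of COL5A1 to COL5A2 was 9.53, 12.1 and 10.9 in PTPF libraries and 11.6, 8.11 and 10.7 in STATF libraries, with overlap.

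The genes of the type I heterotrimer were out of proportion to each other. COL1A1 had 146 to 233 counts per library, while COL1A2, whose chain joins it in type I collagen, had at most 1 count in any library. COL1A1 stood at 4.43, 4.33 and 5.15 CPM in PTPF libraries, against 6.16, 5.60 and 5.32 CPM in STATF libraries. All PTPF libraries were lower, but the difference did not pass the test (log2 fold change -0.30, 95% interval -0.56 to -0.03, edgeR adjusted p = 0.107). COL3A1, the type III chain, had 2 to 17 counts, and COL2A1, the type II chain, at most 2 counts. The 12 stellate cell and fibroblast markers summed to 67.7 to 82.5 CPM in PTPF libraries and 66.2 to 84.1 CPM in STATF libraries. The ranges overlapped almost whole, and most of the sum was DCN and ACTA2. DCN averaged 31.6 ± 9.92 CPM in PTPF libraries and 24.4 ± 9.44 CPM in STATF libraries (SD, n = 3 each). THY1, GFAP and DES had at most 9 counts in any library. PDGFRA, on 4 to 22 counts, was higher in every PTPF library but did not pass (log2 fold change 1.23, edgeR adjusted p = 0.0632). Of 9 markers tested only ACTA2, the smooth muscle actin, passed the test, lower in PTPF libraries. Of its exon bases 30.1% are shared with antisense genes.

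The other collagens were led by COL8A1, a short-chain collagen of vessel walls and of the cornea's Descemet membrane, and COL18A1, a proteoglycan collagen of basement membranes whose end fragment is endostatin. They held 36.2% and 31.8% of the class's summed level per kilobase, and both were lower in PTPF libraries. COL8A1 stood at 218.7, 217.6 and 246.0 CPM in PTPF libraries, against 262.2, 258.2 and 274.9 CPM in STATF libraries. The groups did not overlap, with a log2 fold change of -0.22 (95% interval -0.34 to -0.10, edgeR adjusted p = 6.63e-03). That call was lost without STATF replicate 3 (edgeR adjusted p = 0.0620). COL18A1 stood at 171.0, 172.8 and 196.1 CPM in PTPF libraries, against 221.2, 208.7 and 206.0 CPM in STATF libraries. Again all PTPF libraries were lower, with a log2 fold change of -0.24 (95% interval -0.36 to -0.11, edgeR adjusted p = 4.42e-03). Of its exon bases 16.4% are shared with the antisense gene SLC19A1, which had 2527 counts over the 6 libraries. Without a stated strand setting, reads there cannot be told apart.

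COL6A1, COL7A1 and COL28A1, from the beaded filament, anchoring fibril and unclassed groups, were lower. COL6A1, a chain of the beaded filaments around cells, stood at 40.6, 39.2 and 42.6 CPM in PTPF libraries, against 51.9, 48.6 and 50.3 CPM in STATF libraries. The groups were well apart, with a log2 fold change of -0.30 (95% interval -0.42 to -0.18, edgeR adjusted p = 3.77e-04). Its usual partners were at low counts or at 0: COL6A2 had 3 to 11 counts per library and COL6A3 2 to 13, COL6A6 had 2 to 8, and COL6A5 was at 0 counts in every library. COL7A1, the collagen of the fibrils that anchor skin to its basement membrane, stood at 25.4, 30.5 and 27.6 CPM in PTPF libraries, against 32.2, 32.2 and 34.1 CPM in STATF libraries. All PTPF libraries were lower, with a log2 fold change of -0.24 (95% interval -0.38 to -0.09, edgeR adjusted p = 0.0146). The COL7A1 call was lost without PTPF replicate 1 (edgeR adjusted p = 0.0659), PTPF replicate 3 (edgeR adjusted p = 0.0503) or STATF replicate 3 (edgeR adjusted p = 0.0827). COL28A1 stood at 1.24, 1.77 and 1.47 CPM in PTPF libraries, against 2.53, 2.98 and 2.51 CPM in STATF libraries. It had the largest reduction of any collagen tested, a log2 fold change of -0.83 (95% interval -1.24 to -0.43, edgeR adjusted p = 2.17e-03), on 41 to 124 counts per library and with no overlap.

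The fibril-associated FACIT collagens went both ways. COL21A1, a FACIT collagen of vessel walls, showed the largest increase of any collagen past the test. It lies on chromosome 6 from 56056590 to 56394094 (GRCh38, minus strand). It stood at 8.65, 10.8 and 10.2 CPM in PTPF libraries, against 4.27, 6.27 and 5.24 CPM in STATF libraries. Every PTPF library was higher, with a log2 fold change of 0.91 (95% interval 0.65 to 1.17, edgeR adjusted p = 4.48e-06), or 1.88-fold. COL16A1, which lies at the edge of fibrils and binds integrins, stood at 3.28, 3.62 and 3.002 CPM in PTPF libraries, against 4.80, 5.55 and 4.81 CPM in STATF libraries. Here every PTPF library was lower, with a log2 fold change of -0.61 (95% interval -0.90 to -0.32, edgeR adjusted p = 1.99e-03). COL12A1, which binds the surface of type I fibrils and was the most expressed FACIT gene, stood at 104.0, 129.8 and 133.4 CPM in PTPF libraries, against 113.6, 117.7 and 102.6 CPM in STATF libraries. The groups overlapped through PTPF replicate 1, and the log2 fold change was 0.14 (95% interval -0.04 to 0.31, edgeR adjusted p = 0.278). Without that library COL12A1 passed the test, at a log2 fold change of 0.24 (edgeR adjusted p = 1.57e-03).

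The remaining 5 tested collagens had at most 55 counts in any library and none passed. They were the FACIT genes COL14A1 (log2 fold change 0.04) and COL19A1 (0.44), the transmembrane COL17A1 (0.06) and COL23A1 (0.32), and COL15A1 (0.67), a relative of COL18A1. Their 95% intervals each held 0, and that of COL15A1 ran from -0.49 to 1.83. The other 17 members were too low to test, with at most 17 counts in any library. Besides COL1A2, COL2A1, COL3A1 and the 4 type VI genes, they were COL8A2, COL9A1, COL9A2, COL9A3, COL10A1, COL13A1, COL20A1, COL22A1, COL25A1 and COL26A1. COL22A1 and COL6A5 were at 0 counts in all libraries, which allows up to 0.0919 CPM in the shallowest.

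Members were summed per kilobase to give each class a level per library. The basement membrane class summed to 14.1, 15.5 and 14.7 CPM per kilobase in PTPF libraries, against 19.0, 19.3 and 18.6 in STATF libraries, a ratio of means of 0.777 with no overlap. The fibrillar class summed to 16.6, 21.1 and 20.4 CPM per kilobase in PTPF libraries, against 18.1, 17.9 and 17.3 in STATF libraries, a ratio of 1.09 with overlap through PTPF replicate 1. The other collagens summed to 64.1, 66.9 and 73.0 CPM per kilobase in PTPF libraries, against 77.6, 76.0 and 76.4 in STATF libraries, a ratio of 0.886 with no overlap. Of the whole collagen level, the basement membrane class held 14.5% in PTPF libraries and 16.7% in STATF libraries. The fibrillar class held 18.9% in PTPF libraries and 15.7% in STATF libraries, and the other collagens 66.6% in PTPF libraries and 67.6% in STATF libraries. All collagens together took 0.0902% to 0.106% of counts in PTPF libraries and 0.113% to 0.118% in STATF libraries. These sums are descriptions and were not tested.

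**Figure D4:**
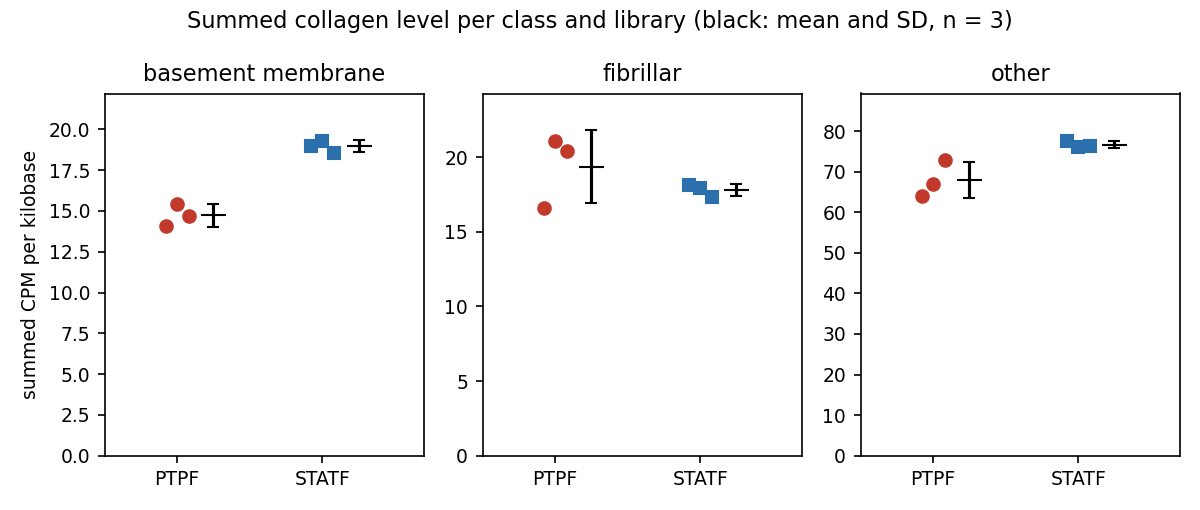
Summed level of each collagen class by library, in CPM per kilobase on axes that start at 0, with PTPF libraries as circles, STATF libraries as squares to their right, and the mean and SD of each group in black (n = 3). PTPF libraries lie below STATF libraries for the basement membrane and other classes, and overlap them for the fibrillar class.

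Genes that make, export, process, cross-link or bind collagen were read from a list of 72 symbols, of which 70 had a row in the table and 58 were tested. Of these 10 were higher and 11 lower in PTPF libraries (36.2%, against 21.6% of all genes), and the list's median was -0.02 on the log2 scale. Scaling by library totals alone gave 7 higher and 15 lower. The roles held 4 to 11 tested genes each and were not tested against each other. The share past the test was 44.4% in prolyl hydroxylation, 0% in lysyl hydroxylation and glycosylation, and 50% in chaperone and export. It was 28.6% in propeptide cleavage, 25% in cross-linking and 33.3% among fibril organisers. Among receptors it was 50%, and in the transforming growth factor axis 36.4%. Levels of these genes are group means in CPM, with the SD over 3 libraries each.

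In prolyl hydroxylation, which stabilises the triple helix, 2 of 9 tested genes were higher and 2 lower. PPIB, a prolyl isomerase of the same complex, was higher in PTPF libraries by 0.35 on the log2 scale (edgeR adjusted p = 2.12e-05), with 27.2% of its exon bases shared with the antisense gene SNX22. P4HA2, a catalytic subunit of the prolyl 4-hydroxylase, was lower (-0.32, edgeR adjusted p = 2.12e-04), as was P3H2, a prolyl 3-hydroxylase that acts on type IV collagen (-0.34, edgeR adjusted p = 3.93e-04). The other prolyl 4-hydroxylase genes were named after their values were seen. Of them P4HB was higher (0.28, edgeR adjusted p = 1.24e-03). P4HA1 (0.15, edgeR adjusted p = 0.0752) and P4HA3 (0.38, edgeR adjusted p = 0.634) did not pass. None of the 5 genes of lysyl hydroxylation and glycosylation passed edgeR's test. The one with the highest CPM, PLOD2 (PLOD1 stood highest per kilobase), averaged 297 ± 15.3 CPM in PTPF libraries and 322 ± 11.6 CPM in STATF libraries (log2 fold change -0.12, edgeR adjusted p = 0.166). Of 6 chaperone and export genes 3 were higher and none lower. SEC24D, a coat protein of the vesicles that carry procollagen out of the endoplasmic reticulum, averaged 127 ± 1.94 CPM in PTPF libraries and 91.4 ± 1.48 CPM in STATF libraries (log2 fold change 0.48, edgeR adjusted p = 8.86e-08). The isomerase FKBP14 (0.26, edgeR adjusted p = 0.0114) and the export receptor MIA3 (0.16, edgeR adjusted p = 0.0459) passed less firmly, and library totals as the only scaling ended both calls (edgeR adjusted p = 0.0714 and 0.265). The FKBP14 call was also lost without STATF replicate 2 (edgeR adjusted p = 0.106). The MIA3 call was lost without PTPF replicate 2 (edgeR adjusted p = 0.227), STATF replicate 1 (0.180), STATF replicate 2 (0.0898) or STATF replicate 3 (0.110), without a filter on low counts (0.0775), in limma-voom (0.0506) and in DESeq2 (0.0515).

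Among 7 genes of propeptide cleavage, the enhancer PCOLCE2 (0.35, edgeR adjusted p = 1.07e-04) and the protease BMP1 (0.17, edgeR adjusted p = 0.0314) were higher. The BMP1 call was lost without PTPF replicate 3 (edgeR adjusted p = 0.138), STATF replicate 2 (0.105) or STATF replicate 3 (0.164), with library totals as the only scaling (0.199) and without a filter on low counts (0.0535). Of 4 cross-linking enzymes tested, only TGM2, a transglutaminase, passed, averaging 721 ± 18.4 CPM in PTPF libraries and 403 ± 38.3 CPM in STATF libraries (log2 fold change 0.84, edgeR adjusted p = 9.15e-11). Of 6 fibril organisers 2 passed, both lower. SPARC, a secreted protein that binds type IV and fibrillar collagens, averaged 47.2 ± 5.22 CPM in PTPF libraries and 68.4 ± 3.998 CPM in STATF libraries (log2 fold change -0.54, edgeR adjusted p = 2.12e-06). FN1, fibronectin, averaged 1597 ± 162 CPM in PTPF libraries and 2223 ± 160 CPM in STATF libraries (log2 fold change -0.48, edgeR adjusted p = 1.62e-05).

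Collagen receptors divided. Of 10 tested, 2 were higher and 3 lower. LAIR1, an inhibitory collagen receptor of immune cells, averaged 3.62 CPM in PTPF libraries and 1.35 CPM in STATF libraries (log2 fold change 1.42, edgeR adjusted p = 1.81e-06). The 5 leukocyte markers summed to 12.95 to 16.3 CPM in PTPF libraries and 8.69 to 9.62 CPM in STATF libraries, with PTPRC at no more than 1 count. Nearly all of that sum was CD14, a receptor for bacterial lipopolysaccharide, at 14.2 ± 1.62 CPM in PTPF libraries and 8.14 ± 0.604 CPM in STATF libraries (SD, n = 3 each; log2 fold change 0.80, edgeR adjusted p = 4.92e-07). MARCO, CSF1R and CD68 had 39, 8 and 12 counts in all PTPF libraries together, against 68, 23 and 17 in all STATF libraries. The part of these markers in the LAIR1 value was not tested. The integrin chains ITGA10 (-0.36, edgeR adjusted p = 1.05e-04) and ITGA2 (-0.34, edgeR adjusted p = 8.87e-04) were lower. The chain ITGA1, named after its values were seen, was higher, at 249.7 ± 15.3 CPM in PTPF libraries and 205.1 ± 14.8 CPM in STATF libraries (log2 fold change 0.28, edgeR adjusted p = 1.03e-03). ITGB1, the beta chain that partners all of them and likewise named afterwards, was lower (-0.21, edgeR adjusted p = 5.68e-03). Other genes share 6.39% of the exon bases of ITGA1, including PELO on the same strand (8095 counts over the 6 libraries). Of 11 genes of the transforming growth factor axis, which drives collagen synthesis in many cells, none was higher and 4 were lower. CTGF, a matricellular growth factor, averaged 21.5 ± 0.834 CPM in PTPF libraries and 49.3 ± 1.01 CPM in STATF libraries (log2 fold change -1.20, edgeR adjusted p = 4.18e-14). TGFB1, the ligand, averaged 93.4 ± 5.03 CPM in PTPF libraries and 127.8 ± 8.68 CPM in STATF libraries (log2 fold change -0.45, edgeR adjusted p = 1.71e-06), and its receptor TGFBR2 was lower, at a log2 fold change of -0.34 (edgeR adjusted p = 6.65e-05). Of the exon bases of TGFB1, 6.64% are shared with the antisense gene HNRNPUL1, which had 30534 counts over the 6 libraries.

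**Figure D5:**
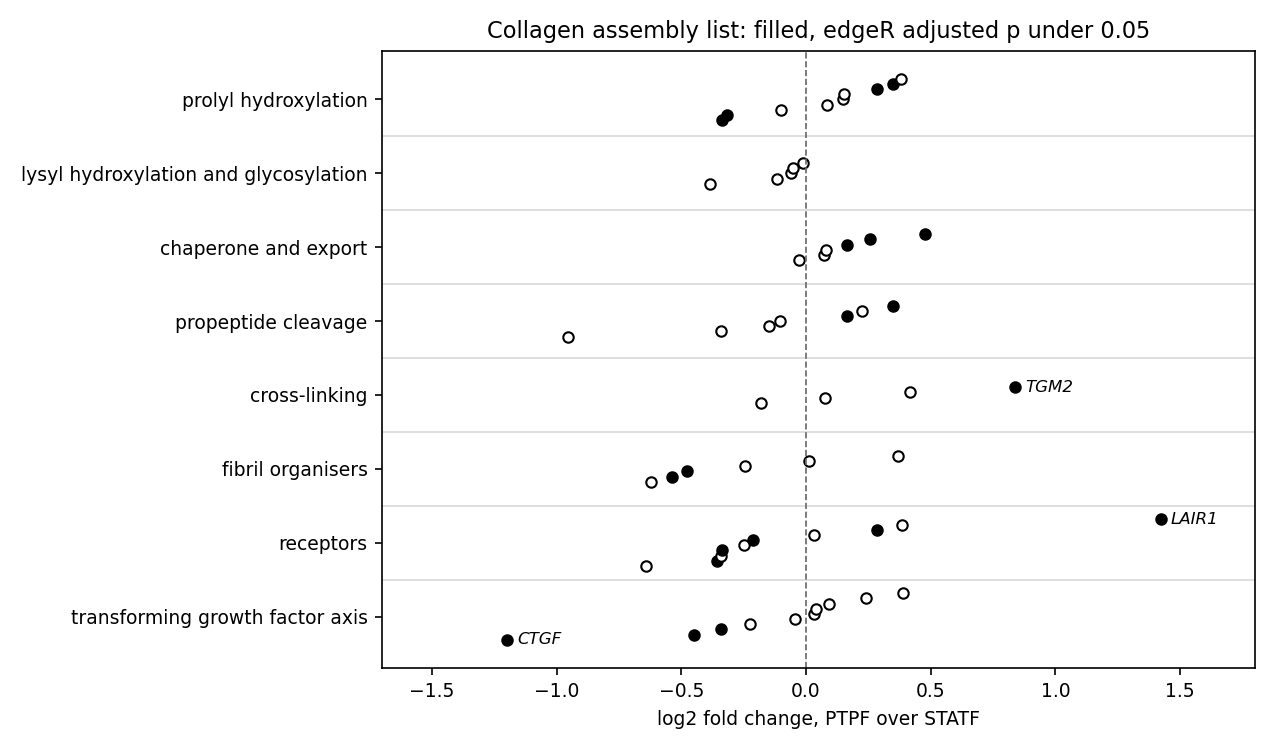
Log2 fold change of PTPF over STATF for 57 of the 58 tested genes of the collagen assembly list, by role, with filled points past an edgeR adjusted p of 0.05 and the genes beyond 0.8 in size among them named. Filled points of the chaperone and export, propeptide cleavage and cross-linking roles lie right of 0, and those of the fibril organiser and transforming growth factor roles left of it.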

How the data were processed

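Polyadenylated RNA of 6 HepaRG libraries was sequenced, with poly-T selection and random-hexamer priming per the labels' protocols. The authors deposited unnormalized read counts of 58735 genes as 1 table, a column per library. The submitters' processing notes name CASAVA 1.8 and HISAT2 2.0.5, the counter featureCounts 1.5.0-p3 and the build GRCh38. The sources used here do not give the annotation release, the strand setting or the handling of multi-mapping reads. All gene identifiers and positions match GENCODE 29, which gave exon overlaps. The deposited gene length, in bases and in an other unit than the counts, gave CPM per kilobase.

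Low genes were removed by filterByExpr, and TMM factors were 0.953 to 1.03. The test was the robust quasi-likelihood test of edgeR 4.0.16 in R 4.3.3, with group as its only term. P-values were adjusted by Benjamini-Hochberg over all 17844 genes tested, with a threshold of 0.05. Positive log2 fold changes mean higher in PTPF libraries. Exact permutation tests were two-sided. Limits on counts of 0 cover counting error only, since PCR copies cannot be told from separate molecules without molecular identifiers. Within groups, pairs of libraries differed by 4.3 to 12.1 chi-square per degree of freedom, more than counting error alone gives. Each library was counted as 1 replicate, though such variation does not show that the libraries were separate cultures. The procedure was run on simulated data with planted changes of 1.5-fold or more, larger than those of most collagens past the test. That run did not check changes as small as theirs. Python 3.11.15 with pandas 2.3.3 handled tables.

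The members, classes, gene lists and tests were chosen with earlier results of these data known. Values are given for every library for collagens past the threshold and for the 2 most expressed per class per kilobase, with COL11A1, COL12A1 and COL1A1 added after their values were seen. From the assembly list, up to 3 genes per role with the smallest adjusted p were named, or the most expressed of a role with none past. A gene of that list is counted but not reported here by value or drawn. Cell type markers outside the rule were named after their values were seen. Promoter sequences are RefSeq's on GRCh38.p14. Alternatives were RLE, upper-quartile and library-total scaling, no filter, a minimum of 50 counts in 3 libraries, limma-voom (limma 3.58.1), DESeq2 1.42.0, a replicate block, each library left out, mitochondrial genes left out, a threshold of 0.01, and testing for changes beyond 1.5-fold.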

Additional observations from a re-analysis of the deposited data

How the results depend on the processing

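No collagen past the test changed direction under any alternative. The count of 2 higher collagens became 1 with library totals as the only scaling, where COL27A1 lost its call (edgeR adjusted p = 0.0508). COL1A1 just passed there as lower (log2 fold change -0.36, edgeR adjusted p = 0.05 after rounding), and the count of lower collagens was 13. The fibrillar count stayed at 1, but the gene was COL1A1, lower, and not COL27A1, higher. That scaling also moved the median of all genes to -0.06. It left 28.1% of called genes higher in PTPF libraries, against 46.6% with TMM. In the test against a change of 1.5-fold, the higher, lower, fibrillar, basement membrane and other collagen counts were all 0, the assembly counts 2 higher and 1 lower, and 303 of all genes passed. At an adjusted p of 0.01, 2551 of all genes passed, against 3863. Leaving out each library in turn gave 2 to 3 higher and 8 to 11 lower collagens, 4 to 6 basement membrane, 1 to 1 fibrillar and 5 to 7 other collagens, 7 to 10 higher and 11 to 13 lower assembly genes, and 2830 to 3808 of all genes. The lowest count of lower collagens, 8, came without STATF replicate 3. Leaving out each library, a check of the ratios of summed levels chosen after seeing the data, gave 0.757 to 0.794 (basement membrane), 1.04 to 1.17 (fibrillar), 0.854 to 0.912 (other) and 0.873 to 0.932 (all). Library totals gave 0.744, 1.04, 0.848 and 0.861 in that order, and 7 higher and 15 lower assembly genes. Deviations of same-numbered libraries correlated at 0.00077 to 0.058, so the numbers were not taken to pair the libraries, and not every library correlated best with its own number. With a replicate block, 4145 genes passed, and the collagen counts stayed at 2 higher and 12 lower. The lowest members limit the precision: COL15A1 was tested on 3 to 14 counts per library.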
